A study of Mus musculus with 35 samples.

Results

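C1qa, C1qb, C1qc, Csf1r, Cd68, Cd14, Tlr7, Fcgr1 and Ctss, a set of 9 genes known from macrophages, were followed across 35 expression arrays of mouse B cells and lymphoid tumours. They are 9 of the 12393 genes that the arrays measured with a probe set of a single gene symbol. The array carried 15 probe sets for them, 3 each for C1qb, Csf1r and Tlr7 and 1 for each of the others, and the probe set with the highest mean over all 35 arrays stood for its gene. The study set B cells sorted at 6 stages of differentiation beside tumours of 3 mouse models. Sorted cells came from wild-type mice and made up 22 arrays. Pro-B cells (3 arrays, strain 129 in replicates 1 and 2 and B6 in replicate 3) and pre-B cells (3 arrays, strain 129) were taken from bone marrow as B220+ IgM- cells, with high CD43 for the first and low CD43 for the second. Plasma cells (3 arrays, strain B6), with low B220, Cd138 and no Cd93, also came from bone marrow. The spleen gave B220+ cells of 3 stages: transitional B cells with Cd93 (4 arrays, strain 129), germinal centre B cells with high PNA (5 arrays, strain B6) and plasmablasts with Cd138 but no Cd93 (4 arrays, strain B6). The 13 tumour arrays were whole lymphoid tumours of mice with a Bcl6 knock-in (4 arrays, also labelled Bcl6 transgenic), of mice transgenic for both Bcl6 and Myc (3 arrays), and of mice without Lig4 and p53 (6 arrays). They are called here Bcl6-labelled, Myc/Bcl6-labelled and Lig4/P53 KO tumours. The labels give no ages, no promoter for the transgenes and no strain background of the tumours, and do not say whether replicates were separate mice or pools, so p-values measure only the spread between these arrays.

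Macrophages are phagocytes that settle in most tissues, lymphoid organs and tumours included, where they clear dying cells and antibody-coated material. Their survival depends on CSF1R, the receptor for the growth factors CSF1 and IL34, and tissue macrophages are a main source of C1q, the protein that starts the classical complement pathway and is built from the chains of C1qa, C1qb and C1qc. Surface and endosomal receptors such as CD14, TLR7 and the high-affinity IgG receptor encoded by Fcgr1 sense microbial and antibody-bound material, while CD68 and the protease cathepsin S (Ctss) act in lysosomes and endosomes. Several of these genes are not restricted to macrophages: Tlr7 and Ctss are also used by B cells, Cd14 and Fcgr1 by monocytes.

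All values are log2 intensities of the arrays, so a difference of 1 is a doubling, and the number of arrays limits the precision. They ran from 1.71 to 14.29 over all probe sets, with a median of 4.92. Levels of different genes are not compared, because each probe set binds with its own strength. In bulk samples such as these, fewer cells of a type and less RNA per cell cannot be told apart. The targeted genes were read beside the labels. Myc read 6.80, 5.77, 6.92 and 7.19 in the Bcl6-labelled tumours, 4.93, 5.11 and 5.41 in the Myc/Bcl6-labelled tumours and 10.10 to 11.31 in the Lig4/P53 KO tumours, so the tumours labelled as Myc transgenic had the lowest Myc of the 3 groups. Bcl6 read 6.23 to 8.52 in the Bcl6-labelled tumours and 4.18 to 9.10 in the Myc/Bcl6-labelled tumours, below its 10.63 to 11.57 in germinal centre cells. Whether the chosen probe sets of Myc and Bcl6 detect transcripts of the transgenes or the knock-in was not tested. Trp53 and Lig4 were not analysed here. Controls for ribosomal RNA and RNA length moved with the step to tumours. Tumours averaged 4.14 to 6.15 over the 18S control probe sets and plasma cells 4.02 to 7.38, against 10.04 to 11.28 for all other sorted arrays. Signal at the 3' end of the Gapdh and Actb controls exceeded that at the 5' end by 2.25 to 4.69 in tumours, by 0.68 to 2.95 in sorted arrays other than plasma cells and by 0.45 to 4.59 in plasma cells, a gap that widens with RNA breakdown. The interquartile range of an array was narrowest in pre-B replicate 2 (2.03), pro-B replicate 1 (2.09) and Bcl6-labelled replicate 2 (2.15) and was 2.33 to 2.85 in the Myc/Bcl6-labelled tumours.

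C1qb, C1qc, Csf1r and Fcgr1 were higher in the Bcl6-labelled and in the Myc/Bcl6-labelled tumours than in sorted B cells, whereas C1qa, Cd68 and Cd14 did not pass in any tumour group. With each group given the same weight, 5 of the 9 genes rose in tumours against sorted cells (C1qb, C1qc, Csf1r, Fcgr1 and Ctss), beside 18.8% of all genes, and 0 fell at adjusted or unadjusted p under 0.05, beside 20.6% of all genes (limma, Benjamini-Hochberg adjusted p under 0.05 here and throughout). Their median difference was 0.96, against 0.03 for all genes. In the Bcl6-labelled tumours 6 of 9 rose, namely these 5 and Tlr7, beside 12% of all genes, and 0 fell, at an unadjusted p also 0, beside 14.8%, with a median of 2.38 against -0.01 for all genes. In the Myc/Bcl6-labelled tumours 4 of 9 rose (C1qb, C1qc, Csf1r and Fcgr1), beside 20.9% of all genes, and 0 fell, at an unadjusted p also 0, beside 21.2%, with a median of 0.63 against 0.10 for all genes (0.27 with equal medians). Against this, 1 rose in the Lig4/P53 KO tumours (C1qb), beside 16% of all genes, and 1 fell (Tlr7), beside 12.1%, with a median of 0.25 against -0.12. These comparisons share their sorted arrays.

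**Figure D1:**
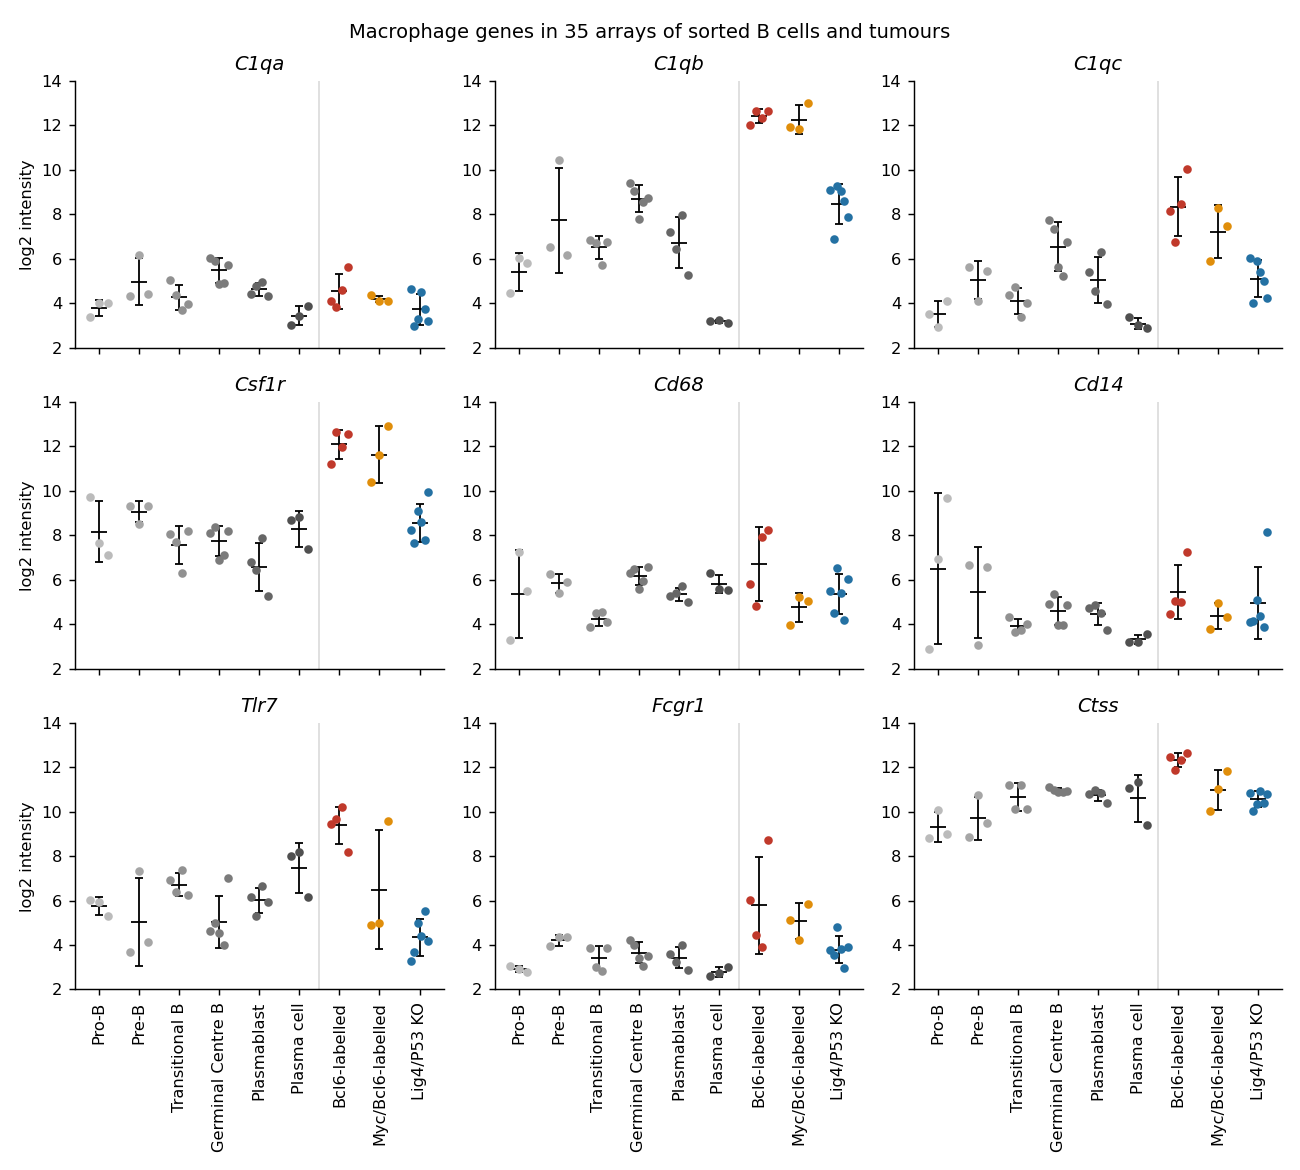
The log2 intensity of the 9 genes in each of the 35 arrays, as points, with the mean and SD of each group as black bars and a grey line between the 6 sorted stages on the left and the 3 tumour groups on the right. C1qb and Csf1r of all Bcl6-labelled and Myc/Bcl6-labelled tumours lie above every sorted array, whereas C1qa is highest in germinal centre cells and Cd14 varies most among pro-B arrays.

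The counts by array point the same way. In 4 of the 9 genes (C1qb, Csf1r, Tlr7 and Ctss) each of the 4 Bcl6-labelled tumours lay above each of the 22 sorted arrays, which held for 1.64% of all genes. In the Myc/Bcl6-labelled tumours this was so for 2 genes, C1qb and Csf1r, and for 2.6% of all genes. In the Lig4/P53 KO tumours it was so for 0 of the 9, and for 1.47% of all genes. With the 18S level as a covariate, an alternative added after the data were seen, 0 of the 9 genes passed in any of these comparisons with sorted cells. That fit called 0, 8, 147 and 5 of all genes in the tumours together and in the Bcl6-labelled, Myc/Bcl6-labelled and Lig4/P53 KO tumours. Tumours and sorted cells other than plasma cells did not overlap in 18S level, so the level and the step to tumours cannot be told apart outside the plasma cells. Plasma cell replicates 1 and 2 had 18S levels of 4.02 and 4.21, near those of tumours, and replicate 3 had 7.38, above every tumour. By group means, plasma cells had the lowest C1qb of all groups (3.18, 3.26 and 3.11), the highest Tlr7 of the sorted stages (8.03, 8.19 and 6.16), and the second highest Csf1r of them (8.68, 8.81 and 7.37).

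Among the C1q chains, C1qb and C1qc rose in tumours and C1qa did not. C1qb read 12.01, 12.64, 12.36 and 12.66 in the Bcl6-labelled tumours and 11.94, 11.86 and 13.00 in the Myc/Bcl6-labelled tumours. In the Lig4/P53 KO tumours it ran from 6.89 over a median of 8.81 to 9.28, and in sorted cells from 3.11 over a median of 6.64 to 10.46. Both Bcl6-carrying groups thus stood apart from all sorted arrays, whose highest value belonged to pre-B replicate 2, while Lig4/P53 KO tumours overlapped with germinal centre cells (7.78 to 9.41). The difference of tumours from sorted cells was 4.67 ± 0.33 (SE, 25.4-fold, adjusted p = 1.01e-12), the largest increase among the 12393 genes, each read by its chosen probe set. The other C1qb probe sets gave 3.85 and 1.91. By group the difference with the chosen probe set was 6.04 ± 0.49 in the Bcl6-labelled tumours (65.6-fold, adjusted p = 9.78e-11), 5.89 ± 0.56 in the Myc/Bcl6-labelled tumours (59.2-fold, adjusted p = 1.92e-09) and 2.08 ± 0.42 in the Lig4/P53 KO tumours (4.24-fold, adjusted p = 0.000305).

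C1qc followed with smaller differences and more scatter. It read 8.13, 6.76, 8.48 and 10.02 in the Bcl6-labelled tumours and 5.91, 8.30 and 7.47 in the Myc/Bcl6-labelled tumours. Lig4/P53 KO tumours ran from 4.03 over a median of 5.20 to 6.03, and sorted cells from 2.86 over 4.45 to 7.76. Bcl6-labelled replicates 1, 3 and 4 and Myc/Bcl6-labelled replicate 2 exceeded every sorted array. The remaining tumours of these groups lay within the range of germinal centre cells (5.21 to 7.76). So did Lig4/P53 KO replicates 1, 3 and 4, while replicates 2, 5 and 6 lay below it. C1qc rose by 3.79 ± 0.48 in the Bcl6-labelled tumours (adjusted p = 3.95e-07) and by 2.67 ± 0.54 in the Myc/Bcl6-labelled tumours (adjusted p = 0.000246), a call lost with array weights (adjusted p = 0.0893, range 3.32e-06 to 0.584 over all alternatives). Its difference in the Lig4/P53 KO tumours was 0.54 ± 0.41 (adjusted p = 0.337).

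C1qa went another way. It read 4.09, 3.85, 4.60 and 5.62 in the Bcl6-labelled tumours, 4.35, 4.08 and 4.11 in the Myc/Bcl6-labelled tumours and 2.99 to 4.63 in the Lig4/P53 KO tumours, all within the 3.00 to 6.17 of sorted cells except the lowest Lig4/P53 KO tumour. Its differences from sorted cells were 0.11 ± 0.33, -0.25 ± 0.37 and -0.70 ± 0.28 in the 3 tumour groups (adjusted p = 0.855, 0.618 and 0.0577). The last passed the threshold in 9 of the alternatives, with adjusted p down to 0.017 without the plasma cells, a fit added after the data were seen. Across the 22 sorted arrays C1qa followed C1qb (r = 0.91) and C1qc (r = 0.75). Across the 13 tumours these values were 0.59 and 0.73, and C1qb with C1qc gave 0.85. The points of each coefficient share arrays and their labelling, and these correlations are descriptions only. C1qa is measured by 1 probe set, so whether its transcript or its probes set the low readings was not tested.

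The promoters of genes that rose together are shown because the windows of C1qb, C1qc and Fcgr1 share a short motif. Promoter windows were read for 5 of the 9 genes, as the 250 bases before the transcription start in RefSeq's annotation of build GRCm38.p6, written 5′ to 3′ on the gene's strand. In that annotation C1qb, C1qc and C1qa are neighbours on chromosome 4. Capitals mark AGGAAGT or its reverse complement ACTTCCT, a form of the purine-rich core that ETS factors such as PU.1 are known to bind, searched on both strands and chosen after the sequences were seen.
C1qb, chr4:136886201-136886450, minus strand: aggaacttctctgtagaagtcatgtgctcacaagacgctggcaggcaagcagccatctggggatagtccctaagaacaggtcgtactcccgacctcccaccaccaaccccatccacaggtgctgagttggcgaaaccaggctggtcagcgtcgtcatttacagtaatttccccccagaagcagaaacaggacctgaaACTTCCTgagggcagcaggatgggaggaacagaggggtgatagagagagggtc
C1qc, chr4:136892915-136893164, minus strand: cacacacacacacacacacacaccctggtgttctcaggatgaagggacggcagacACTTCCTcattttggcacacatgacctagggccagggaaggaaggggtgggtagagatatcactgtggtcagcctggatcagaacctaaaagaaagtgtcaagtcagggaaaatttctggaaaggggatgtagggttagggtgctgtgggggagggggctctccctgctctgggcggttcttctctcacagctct
Fcgr1, chr3:96293970-96294219, minus strand: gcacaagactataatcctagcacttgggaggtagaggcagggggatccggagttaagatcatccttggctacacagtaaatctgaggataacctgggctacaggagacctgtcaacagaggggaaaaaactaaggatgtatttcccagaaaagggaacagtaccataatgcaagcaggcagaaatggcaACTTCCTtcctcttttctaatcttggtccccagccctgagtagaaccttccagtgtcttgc
The match begins 53 bases before the start in C1qb, 195 before it in C1qc and 61 before it in Fcgr1. The windows of Cd68 and Ctss hold no match, and 7.69% of all 32851 RefSeq windows of this length hold one. A match is a description of letters and no evidence of a binding site.

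Csf1r, the receptor that macrophages need for survival, behaved like C1qb. It read 11.21, 12.63, 11.97 and 12.55 in the Bcl6-labelled tumours and 10.39, 11.60 and 12.92 in the Myc/Bcl6-labelled tumours. Lig4/P53 KO tumours ran from 7.67 over a median of 8.41 to 9.93 and sorted cells from 5.25 over 7.97 to 9.74. All 7 tumours of the first 2 groups therefore exceeded every sorted array, and of the Lig4/P53 KO tumours replicate 6 did so. Csf1r rose by 4.19 ± 0.46 in the Bcl6-labelled tumours (18.3-fold, adjusted p = 3.01e-08) and by 3.74 ± 0.52 in the Myc/Bcl6-labelled tumours (13.3-fold, adjusted p = 1.71e-06). For Lig4/P53 KO tumours the difference was 0.66 ± 0.39 (adjusted p = 0.218). Across the 13 tumours Csf1r and C1qb had r = 0.91, and across the 22 sorted arrays r = -0.03.

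The probe sets of 1 gene did not always tell the same story. For C1qb the difference of tumours from sorted cells was 4.67 ± 0.33 with the chosen probe set 1437726_x_at, 3.85 ± 0.29 with 1434366_x_at and 1.91 ± 0.38 with 1417063_at, and each passed. Lig4/P53 KO tumours differed from sorted cells with the first 2 (2.08 ± 0.42 and 1.55 ± 0.37) and not with 1417063_at (0.48 ± 0.49, adjusted p = 0.488). The ending _x_at marks probe sets whose probes may also bind other transcripts. For Csf1r the difference of tumours from sorted cells was 2.86 ± 0.31 with 1419872_at, 1.90 ± 0.35 with 1419873_s_at and 0.27 ± 0.22 with 1423593_a_at (adjusted p = 0.362). The last of these read 4.51 to 6.70 in sorted cells and 5.25 to 7.46 in the Bcl6-labelled tumours, was higher in the latter by 0.88 ± 0.34 (adjusted p = 0.0467), and turned the sign in the Myc/Bcl6-labelled tumours (-0.12 ± 0.38, adjusted p = 0.821). For Tlr7 the chosen 1449640_at and 1419848_x_at gave 0.49 ± 0.68 and 0.61 ± 0.67 in the Myc/Bcl6-labelled tumours, and 1422010_at fell by 1.45 ± 0.51 (adjusted p = 0.0218).

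**Figure D2:**
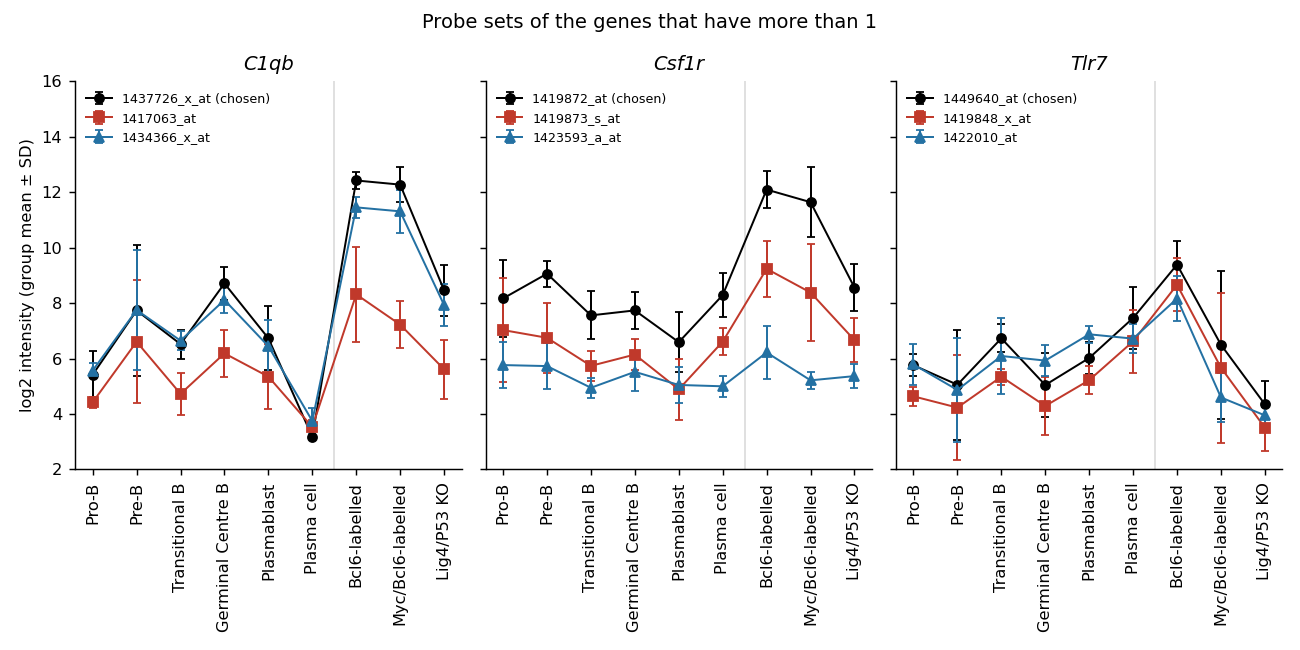
Group means of log2 intensity (± SD) for the 3 probe sets each of C1qb, Csf1r and Tlr7, with the chosen probe set in black and the grey line between sorted stages and tumours. The rise in Bcl6-labelled tumours appears in each C1qb and Tlr7 probe set, and is 4.19, 3.04 and 0.88 in the 3 Csf1r probe sets.

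The receptors that sense microbial and antibody-bound material split. Fcgr1, the high-affinity IgG receptor, read 6.03, 4.47, 3.89 and 8.73 in the Bcl6-labelled tumours and 5.14, 4.23 and 5.83 in the Myc/Bcl6-labelled tumours, against 2.61 to 4.36 in sorted cells and 2.95 to 4.80 in the Lig4/P53 KO tumours. Bcl6-labelled replicate 4 was far above the others, and replicate 3 lay within the sorted range. The mean level of 12 monocyte and granulocyte markers moved with it: it was 9.62 in Bcl6-labelled replicate 4, which also had the highest Cd14, Cd68, C1qa and C1qc of that group, and 3.91 to 6.12 in the other 3, and the part of these cells was not tested. Fcgr1 rose by 2.38 ± 0.45 in the Bcl6-labelled tumours (adjusted p = 0.000138, and 1.40 with adjusted p = 0.00394 without replicate 4) and by 1.67 ± 0.51 in the Myc/Bcl6-labelled tumours (adjusted p = 0.00901). The second call was lost without Myc/Bcl6-labelled replicate 3 (1.28, adjusted p = 0.105), with array weights (adjusted p = 0.0817) and with the 3' minus 5' difference as a covariate (adjusted p = 0.0603), and its adjusted p ranged from 0.000241 to 0.729 over all alternatives. In the Lig4/P53 KO tumours the difference was 0.40 ± 0.38 (adjusted p = 0.457).

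Tlr7, the endosomal receptor for single-stranded RNA, had opposite calls in different tumour groups. It read 9.47, 9.66, 10.20 and 8.21 in the Bcl6-labelled tumours, all above the highest sorted array (8.19, a plasma cell array). The Myc/Bcl6-labelled tumours split into 4.92 and 5.00 for replicates 1 and 2 and 9.57 for replicate 3. The Lig4/P53 KO tumours ran from 3.30 over a median of 4.31 to 5.54, the lowest mean of the 9 groups. Tlr7 rose by 3.37 ± 0.60 in the Bcl6-labelled tumours (10.4-fold, adjusted p = 7.04e-05) and fell by 1.66 in the Lig4/P53 KO tumours (SE 0.51, adjusted p = 0.0141). The fall lost its call without Lig4/P53 KO replicate 1 (adjusted p = 0.0539, range 6.06e-06 to 0.409 over all alternatives). With the 18S level as a covariate the Bcl6-labelled difference was 0.03. Over the 3 groups together the difference was 0.73 ± 0.40 (adjusted p = 0.147), which passed without pre-B replicate 2 (0.92, adjusted p = 0.0392). It also passed without the plasma cells (1.02, adjusted p = 0.0471), a fit added after the data were seen. Without Myc/Bcl6-labelled replicate 3 the difference was 0.22 (adjusted p = 0.654).

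Cd14, the coreceptor for lipopolysaccharide, did not pass in any tumour group. Its values were 4.47, 5.03, 5.01 and 7.26 in the Bcl6-labelled tumours, 3.80, 4.96 and 4.34 in the Myc/Bcl6-labelled tumours, and 3.87 over a median of 4.25 to 8.17 in the Lig4/P53 KO tumours, of which replicate 6 stood apart. In sorted cells it ran from 2.89 to 9.67, and pro-B replicates 1, 2 and 3 alone read 2.89, 6.92 and 9.67. The differences from sorted cells were 0.74 ± 0.71, -0.34 ± 0.81 and 0.25 ± 0.60 (adjusted p = 0.495, 0.755 and 0.784).

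Of the lysosomal genes, Ctss rose in the Bcl6-labelled tumours. Cathepsin S, which trims the invariant chain of MHC class II in macrophages and B cells, was high in all 35 arrays (8.83 or more). It read 12.47, 11.89, 12.35 and 12.65 in the Bcl6-labelled tumours, 10.05, 11.00 and 11.84 in the Myc/Bcl6-labelled tumours, 10.05 to 10.94 in the Lig4/P53 KO tumours and 8.83 to 11.35 in sorted cells. Only the Bcl6-labelled group lay wholly above sorted cells, with a difference of 2.01 ± 0.32 (4.02-fold, adjusted p = 1.62e-05). It was 0.63 ± 0.36 in the Myc/Bcl6-labelled tumours (adjusted p = 0.16, and 1.09 with adjusted p = 0.0387 without replicate 1) and 0.24 ± 0.27 in the Lig4/P53 KO tumours (adjusted p = 0.541). Over the 3 groups together Ctss rose by 0.96 ± 0.21 (adjusted p = 0.000497), which was 0.56 (adjusted p = 0.315) with the 3' minus 5' difference as a covariate and -0.90 (adjusted p = 0.924) with the 18S level as one.

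Cd68, a glycoprotein of lysosomes and endosomes much used to stain macrophages, did not pass. It read 5.79, 4.80, 7.94 and 8.24 in the Bcl6-labelled tumours, of which the last 2 exceeded every sorted array (3.29 to 7.23), and 3.98, 5.21 and 5.05 in the Myc/Bcl6-labelled tumours. Its difference from sorted cells in the Bcl6-labelled tumours was 1.24 ± 0.48 (adjusted p = 0.0536). Without Bcl6-labelled replicate 4 or 3 it was 0.72 and 0.82 (adjusted p = 0.341 and 0.284). It passed in 10 alternatives, among them those without Bcl6-labelled replicate 2 (1.87, adjusted p = 0.00603), without Bcl6-labelled replicate 1 (1.54, adjusted p = 0.0387) and without pro-B replicate 2 (1.39, adjusted p = 0.0161, range 0.000994 to 0.942 over all alternatives). Differences in the Myc/Bcl6-labelled and Lig4/P53 KO tumours were -0.71 ± 0.54 and -0.10 ± 0.41.

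**Figure D3:**
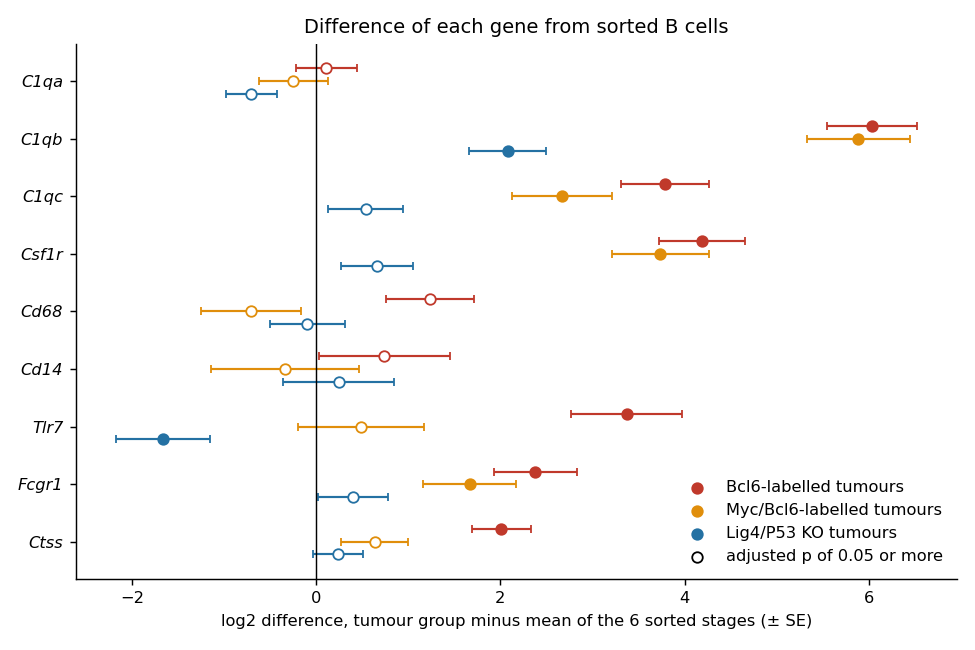
The log2 difference (± SE) of each gene between a tumour group and the mean of the 6 sorted stages. Filled points passed the adjusted p threshold of 0.05 and open points did not; C1qb is the gene that passed in all 3 groups, and Tlr7 passed upward in Bcl6-labelled and downward in Lig4/P53 KO tumours.

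The tumour groups were also set against each other, all of them samples of low 18S level. Of the 9 genes 6 were higher in Bcl6-labelled than in Lig4/P53 KO tumours, beside 10.9% of all genes, and 0 lower, at an unadjusted p also 0, beside 15.5%. The median was 1.98 against 0.08 for all genes. These were Tlr7 (5.04 ± 0.71, 32.8-fold, adjusted p = 3.96e-06), C1qb (3.95 ± 0.58, 15.5-fold, adjusted p = 7.13e-06), Csf1r (3.53 ± 0.55, 11.6-fold, adjusted p = 1.51e-05), C1qc (3.25 ± 0.57, adjusted p = 7.77e-05), Fcgr1 (1.98 ± 0.53, adjusted p = 0.00611) and Ctss (1.77 ± 0.38, adjusted p = 0.000816). Fcgr1 depended on Bcl6-labelled replicate 4, without which it was 1.00 (adjusted p = 0.0676, range 0.000258 to 0.0676 over all alternatives), and it had an adjusted p of 0.0531 with the groups compared alone. In 5 of the 9 genes, all of these except Fcgr1, the arrays of the groups did not overlap, which held for 8.71% of all genes. The 18S level itself was 4.14 to 4.65 in the Bcl6-labelled and 4.15 to 6.15 in the Lig4/P53 KO tumours, and with it as a covariate 6 genes passed. The 3' minus 5' difference did not overlap, at 3.65 to 4.60 in the Bcl6-labelled and 2.25 to 3.64 in the Lig4/P53 KO tumours. From these groups alone it cannot be told apart from the tumour model. The interquartile range was 2.15 to 3.78 in the former and 3.74 to 4.23 in the latter. Markers of some other cells moved with this comparison: 8 of 10 T-cell markers were higher and 0 lower (median 1.77), as were 9 of 13 stroma and vessel markers with 1 lower (median 2.32). Of 11 B-lineage markers 1 was higher and 5 lower. Monocyte and granulocyte (1 of 12), dendritic cell (1 of 8), erythroid (0 of 6), NK-cell (2 of 7) and plasma cell markers (3 of 7) had these counts higher and 0 lower. The part of these cells in the difference was not tested.

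Myc/Bcl6-labelled tumours exceeded Lig4/P53 KO tumours in 4 of the 9 genes, beside 22.3% of all genes, and were lower in 0, at an unadjusted p also 0, beside 23.2%. Their median was 1.27 against 0.16 for all genes. C1qb (3.80 ± 0.64, adjusted p = 3.74e-05) and Csf1r (3.08 ± 0.60, adjusted p = 0.000223) did not overlap between these groups, which held for 18.3% of all genes. C1qc (2.13 ± 0.62, adjusted p = 0.00727) lost its call without Myc/Bcl6-labelled replicate 2 (1.59, adjusted p = 0.0709) and with array weights (1.52, adjusted p = 0.238, range 0.00055 to 0.238 over all alternatives). Tlr7 (2.15 ± 0.78, adjusted p = 0.0263) rested on Myc/Bcl6-labelled replicate 3, without which its difference was 0.61 (adjusted p = 0.539), and lost its call without Lig4/P53 KO replicate 1 too (1.94, adjusted p = 0.0545, range 0.00895 to 0.539 over all alternatives). For Fcgr1 the difference was 1.27 ± 0.58 (adjusted p = 0.0723), which passed without Bcl6-labelled replicate 3 or 4, Myc/Bcl6-labelled replicate 2 or Lig4/P53 KO replicate 3 (adjusted p from 0.0131 to 0.048).

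Between Myc/Bcl6-labelled and Bcl6-labelled tumours 0 of the 9 genes were higher, at an unadjusted p also 0, beside 1.94% of all genes, and 1 was lower, Tlr7, beside 1.97%. All 9 differences were below 0, with a median of -1.08 against 0.03 for all genes. The Tlr7 difference of -2.89 ± 0.85 just passed (adjusted p = 0.0474, range 0.000712 to 0.481 over all alternatives). It kept its call in 9 of the 35 fits that left out 1 array, and its adjusted p was highest without Myc/Bcl6-labelled replicate 2 (-2.14, adjusted p = 0.243) or replicate 1 (-2.10, adjusted p = 0.201). Without replicate 3 it was -4.43 (adjusted p = 0.000712). For C1qb the difference was -0.15 ± 0.69 and for Csf1r -0.45 ± 0.65. Cd68 (-1.94 ± 0.67, adjusted p = 0.0946) and Ctss (-1.37 ± 0.45, adjusted p = 0.076) had an unadjusted p under 0.05, and both passed without Bcl6-labelled replicate 2 (adjusted p = 0.0125 and 0.0376). Cd68 also passed without pro-B replicate 1 (adjusted p = 0.0431), and Ctss without pre-B replicate 2, plasma cell replicate 3 or Myc/Bcl6-labelled replicate 3 (adjusted p from 0.0216 to 0.0485).

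Ordered by group mean, Bcl6-labelled tumours came first for 7 of the 9 genes, all but C1qa, where germinal centre cells led, and Cd14, where pro-B cells led. Myc/Bcl6-labelled tumours came second for C1qb, C1qc, Csf1r, Fcgr1 and Ctss, and overlapped with the Bcl6-labelled tumours in each of these but Ctss. A gap between neighbouring groups followed the second place for C1qb and Csf1r, and the first place for Tlr7 and Ctss. For C1qb the order then ran from germinal centre cells over Lig4/P53 KO tumours, pre-B cells, plasmablasts, transitional cells and pro-B cells to plasma cells, whose 3 arrays lay below all others. Among these lower groups each overlapped with the next except pro-B with plasma cells. C1qa had a gap between Myc/Bcl6-labelled tumours and pro-B cells, and Cd14 between transitional and plasma cells. C1qc, Fcgr1 and Cd68 had no gap between any neighbours. How often a group leads or stands apart from its neighbour among all genes was not counted.

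Sorted B cells themselves differed in C1q. Of the 9 genes 5 varied among the 6 sorted stages (C1qa, C1qb, C1qc, Fcgr1 and Ctss), beside 32.5% of all genes (moderated F test, adjusted p from 0.000168 to 0.0402), and the adjusted p of Csf1r, Cd68 and Tlr7 was 0.0584, 0.0576 and 0.0575. C1qb read 4.44, 6.03 and 5.79 in pro-B cells, 6.55, 10.46 and 6.19 in pre-B cells and 6.86, 6.72, 5.73 and 6.76 in transitional cells. It was 9.41, 9.06, 7.78, 8.56 and 8.72 in germinal centre cells, 7.19, 6.45, 7.99 and 5.29 in plasmablasts and 3.18, 3.26 and 3.11 in plasma cells. Apart from pre-B replicate 2, germinal centre cells were the highest sorted stage, with plasmablast replicate 3 within their range, and plasma cells the lowest. C1qc read 7.76, 7.35, 5.64, 5.21 and 6.74 in germinal centre cells against 3.36 to 4.72 in transitional cells and 2.86 to 3.37 in plasma cells, so germinal centre cells lay above both, while the latter 2 stages touched.

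From transitional to germinal centre cells 4 of the 9 genes rose, beside 13.5% of all genes called in either direction. They were C1qc (2.43 ± 0.52, adjusted p = 0.00458), C1qb (2.19 ± 0.66, adjusted p = 0.0332), Cd68 (1.92 ± 0.49, adjusted p = 0.014) and C1qa (1.22 ± 0.38, adjusted p = 0.0381). The step is also one from strain 129 to B6, and with strain as a covariate 0 of the 9 passed (40 of all genes did). Strain varied within a stage only in pro-B cells (2 arrays of 129 and 1 of B6), so its term rests on these arrays. That fit therefore cannot tell strain and stage apart in this step. With the replicate block, 3 of the 9 genes passed, C1qa (adjusted p = 0.0858) and C1qb (adjusted p = 0.0652) lost their call and Tlr7 gained one (-2.18, adjusted p = 0.0357), as it did without pre-B replicate 2 or germinal centre replicate 5 (adjusted p = 0.02 and 0.0254). C1qa lost its call without transitional replicate 2, 3 or 4 or germinal centre replicate 1, 2 or 5, and C1qb without any 1 of the 4 transitional arrays or germinal centre replicate 1, 2, 4 or 5. In this step the median of all genes was -0.27, and after renewed quantile normalization -0.06. Markers of some other cell types were higher in germinal centre than in transitional cells without overlap of the arrays. The mean level was 6.46 to 8.58 against 3.98 to 5.31 for monocyte and granulocyte markers, 6.74 to 7.87 against 4.43 to 4.89 for NK-cell markers and 5.46 to 6.53 against 4.57 to 4.70 for T-cell markers. Dendritic cell markers (4.55 to 4.75 against 4.79 to 5.21) and stroma and vessel markers (3.64 to 3.96 against 4.41 to 4.66) were lower without overlap. The list of macrophage receptors and lineage genes overlapped (5.02 to 5.98 against 4.65 to 5.24). The part of these cells in the rise was not tested. Of the genes called in this step 39.2% were higher, and 56.7% after that normalization or 53.6% with equal medians.

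From plasmablasts to plasma cells 2 of the 9 genes fell, beside 14.3% of all genes called in either direction. C1qb fell by 3.55 (SE 0.76, adjusted p = 0.00248) and C1qc by 1.97 (SE 0.59, adjusted p = 0.0283). C1qc lost its call without plasmablast replicate 1 or 3 or any 1 of the 3 plasma cell arrays. Both calls were lost with the 18S level as a covariate (adjusted p = 0.431 for C1qb and 0.647 for C1qc), which was 10.19 to 10.86 in plasmablasts and 4.02 to 7.38 in plasma cells. The mean level of monocyte and granulocyte markers was 6.33 to 8.11 in plasmablasts and 3.20 to 3.86 in plasma cells, and its part in the fall was not tested. Csf1r (1.70 ± 0.64, adjusted p = 0.084) and Tlr7 (1.44 ± 0.73, adjusted p = 0.232) had differences above 0. In this step 62.3% of called genes were higher, 53.3% with equal medians and 49.9% after renewed quantile normalization, and the median of all genes moved from 0.22 to 0.10 and 0.06.

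The other steps gave no call in limma. From pro-B to pre-B cells 0 of the 9 passed (4 at an unadjusted p under 0.05, all higher), beside 0.161% of all genes, of which 70% were higher, 61.1% with equal medians and 50% after renewed quantile normalization. From pre-B to transitional cells 0 passed (4 at an unadjusted p under 0.05), beside 5.84%. From germinal centre cells to plasmablasts 0 passed (3 at an unadjusted p under 0.05, C1qa, C1qb and C1qc, all lower), beside 0.678%.

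Other macrophage genes were called higher in the Bcl6-labelled and Myc/Bcl6-labelled tumours too. The counts of this and the following lists stand beside 12% of all genes higher and 14.8% lower in the Bcl6-labelled, 20.9% and 21.2% in the Myc/Bcl6-labelled and 16% and 12.1% in the Lig4/P53 KO tumours. Of 20 measured receptors and lineage genes of macrophages, which hold none of the 9, 11 rose and 0 fell in the Bcl6-labelled tumours against sorted cells (median 1.87, all genes -0.01), and 11 rose and 1 fell in the Myc/Bcl6-labelled tumours (median 1.61). In the Lig4/P53 KO tumours 0 rose and 3 fell (median -0.19, all genes -0.12), the latter near the share of all genes. Aif1, an actin-binding protein of macrophages, rose by 4.60 ± 0.41 and 3.63 ± 0.47 in the first 2 groups, Mertk, a receptor for the uptake of dying cells, by 3.59 ± 0.38 and 2.64 ± 0.43, and Clec7a, the beta-glucan receptor dectin-1, by 3.43 ± 0.38 and 2.43 ± 0.43. Cybb, a subunit of the phagocyte oxidase that B cells also carry, fell in Myc/Bcl6-labelled (-1.99 ± 0.32) and Lig4/P53 KO tumours (-2.34 ± 0.24). Between Bcl6-labelled and Lig4/P53 KO tumours 12 of the 20 were higher and 0 lower, beside 10.9% and 15.5% of all genes. The mean level of this list was 6.28 to 7.35 in Bcl6-labelled, 6.02 to 6.85 in Myc/Bcl6-labelled and 4.11 to 5.39 in Lig4/P53 KO tumours, and 4.28 to 5.98 in sorted cells.

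Partners of the 9 genes changed in both directions. In the complement list, Cfb (5.21 ± 0.37), factor B of the alternative pathway, and C1s1 (4.52 ± 0.47), a protease of the C1 complex, rose in the Bcl6-labelled tumours, and Cr2 (-2.49 ± 0.41), a complement receptor of B cells, fell. In all 5 of 12 rose and 1 fell there, 4 and 1 in the Myc/Bcl6-labelled tumours and 1 and 2 in the Lig4/P53 KO tumours. In the CSF1 receptor pathway 1 of 11 rose and 2 fell in the Bcl6-labelled tumours, near the shares of all genes: Csf2ra, a chain of the GM-CSF receptor, was higher (2.11 ± 0.46), and Cbl (-3.98 ± 0.61), a ubiquitin ligase that turns receptors over, and Pik3cg (-1.33 ± 0.37), a PI3-kinase, were lower. It was 1 and 5 in the Myc/Bcl6-labelled and 1 and 4 in the Lig4/P53 KO tumours. Among other Toll-like receptors and adaptors 5 of 14 rose in the Bcl6-labelled tumours, among them Tlr1 (2.76 ± 0.63), a partner of TLR2, and 0 fell, where Unc93b1 (0.13 ± 0.27) and Ly96 (-0.10 ± 0.31) did not pass. In the Myc/Bcl6-labelled tumours 1 of this list rose and 3 fell. In the Lig4/P53 KO tumours 1 rose and 4 fell, with Unc93b1 (-1.62 ± 0.23), which carries TLR7 to endosomes, and Ly96 (-2.10 ± 0.26), the partner of TLR4.

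Among other Fc receptors 2 of 8 rose and 2 fell in the Bcl6-labelled tumours. Fcgr3 (2.09 ± 0.51), a low-affinity IgG receptor, was higher, and Fcrl1 (-1.49 ± 0.41) and Fcer2a (-1.50 ± 0.43), receptors of B cells, were lower. Fc receptors counted 1 higher and 3 lower in the Myc/Bcl6-labelled and 1 and 4 in the Lig4/P53 KO tumours. Lysosomal genes counted 5 of 15 higher and 2 lower in the Bcl6-labelled tumours, with Grn (4.06 ± 0.35), the growth factor progranulin, among the increases and Cst3 (-2.41 ± 0.33), a cathepsin inhibitor, among the decreases. They counted 2 and 5 in the Myc/Bcl6-labelled and 1 and 6 in the Lig4/P53 KO tumours, with Ctsd, a major lysosomal protease, among the decreases over all tumours (-1.62 ± 0.27).

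Markers of other tissue cells moved with the macrophage genes. Of 13 stroma and vessel markers 8 rose and 1 fell in the Bcl6-labelled tumours and 9 and 1 in the Myc/Bcl6-labelled tumours, while 0 of 13 passed in the Lig4/P53 KO tumours (median -0.36). Over all tumours the collagen gene Col4a1 (2.61 ± 0.22), the matrix protein gene Sparc (2.53 ± 0.25) and Col3a1 (2.32 ± 0.26) led. The list level was 5.65 to 6.48, 5.67 to 6.57 and 3.82 to 4.15 in the 3 tumour groups in that order, and 3.64 to 5.22 in sorted cells. B-lineage markers counted 1 higher and 4 lower of 11 in the Bcl6-labelled, 1 and 6 in the Myc/Bcl6-labelled and 1 and 2 in the Lig4/P53 KO tumours. The median difference of this list was 0.33 in the Bcl6-labelled, -1.12 in the Myc/Bcl6-labelled and -0.28 in the Lig4/P53 KO tumours. Over all tumours it was 0.14 against 0.03 for all genes, and 6 of the 11 did not pass. Cd79a, a signalling chain of the B-cell receptor, read 6.80 to 7.22 in Bcl6-labelled, 5.51 to 7.54 in Myc/Bcl6-labelled and 9.73 to 11.03 in Lig4/P53 KO tumours, against 9.01 to 12.57 in sorted cells. Cd79b (-1.85 ± 0.19) and Vpreb3 (-3.21 ± 0.33), B-lineage genes too, were lower over all tumours. The part of these cells in the level of the macrophage genes was not tested.

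**Figure D4:**
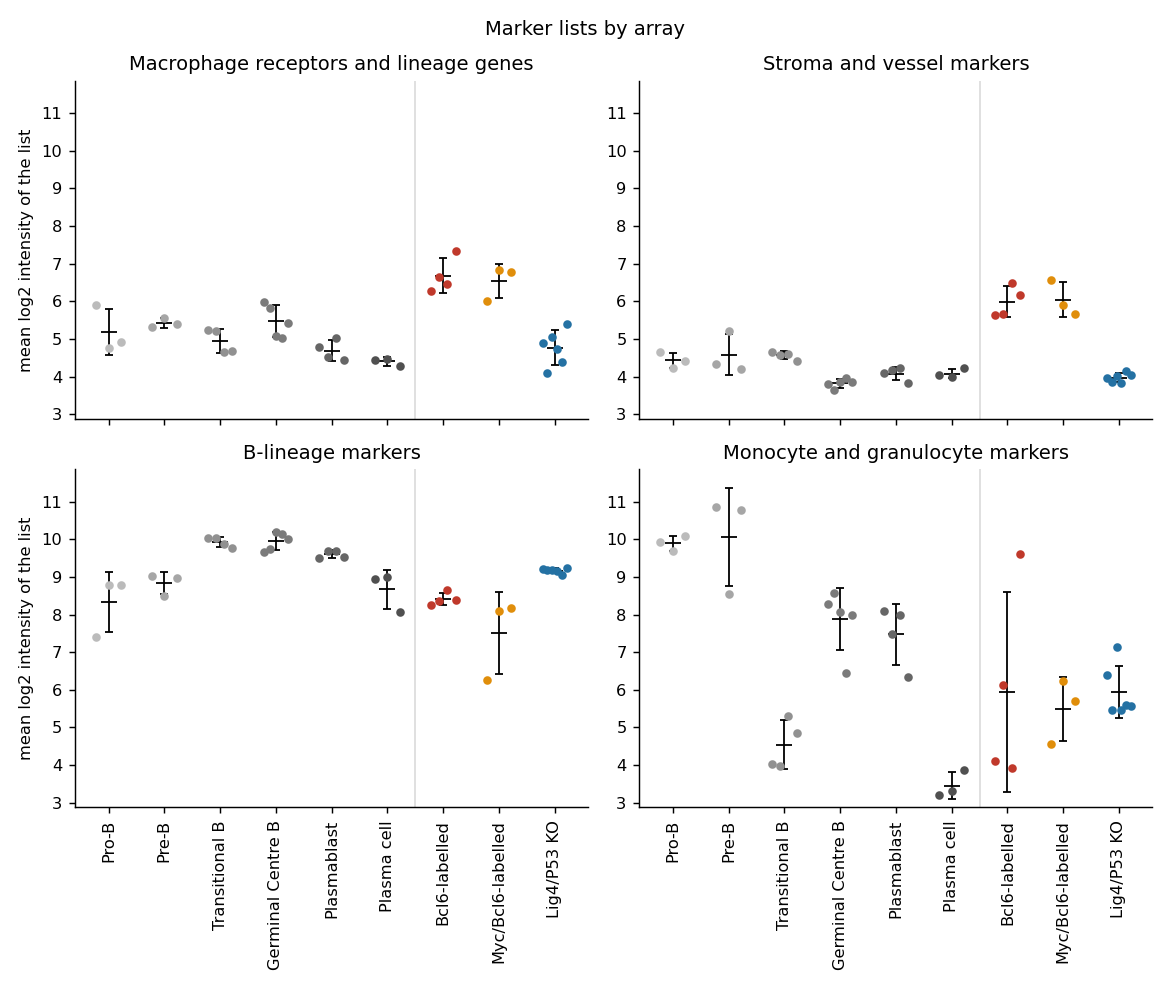
Mean log2 intensity of 4 marker lists in each array, with the mean and SD of each group as black bars. Macrophage and stroma lists are high in the Bcl6-labelled and Myc/Bcl6-labelled tumours, where the B-lineage list is lower than in Lig4/P53 KO tumours. In the B-lineage list every tumour except Myc/Bcl6-labelled replicate 1 (6.26) lies within the range of sorted cells (7.41 to 10.18).

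Granulocyte and monocyte markers did not share this pattern. Over all tumours 0 of 12 rose and 8 fell, with Camp (-2.75 ± 0.46), Ltf (-1.96 ± 0.37) and Cd177 (-1.49 ± 0.25), genes of neutrophils. This and the following counts over all tumours stand beside 18.8% of all genes higher and 20.6% lower. The list level ran from 3.20 to 10.86 in sorted cells and from 3.91 to 9.62 in the Bcl6-labelled tumours. Its group mean was 9.89 in pro-B, 10.06 in pre-B, 7.88 in germinal centre cells and 7.47 in plasmablasts. It was 4.55 in transitional and 3.45 in plasma cells, and the tumour groups (5.94, 5.49 and 5.94) lay between. Dendritic cell markers counted 0 higher and 3 lower of 8 over all tumours (Flt3, -1.28 ± 0.22, Ccr7, -1.44 ± 0.26, Ccl22, -0.92 ± 0.30), NK-cell markers 0 and 5 of 7 (Prf1, -1.42 ± 0.20, Nkg7, -1.43 ± 0.27, Ncr1, -0.86 ± 0.21) and erythroid markers 0 and 3 of 6 (Alas2, -2.08 ± 0.37, Slc4a1, -2.31 ± 0.46, Rhd, -1.45 ± 0.31). T-cell markers counted 0 and 3 of 10 (Cd5, -0.88 ± 0.23, Cd3d, -0.97 ± 0.31, Cd28, -0.98 ± 0.34), and 3 higher and 0 lower in the Bcl6-labelled tumours. Plasma cell markers counted 1 and 3 of 7 (Slamf7, 1.30 ± 0.23, Irf4, -2.97 ± 0.52, Jchain, -1.66 ± 0.39). Among sorted stages the NK-cell list was highest in germinal centre cells (mean 7.48) and the erythroid list in pre-B cells (7.66). Plasma cells read 3.85 and 3.63 in these lists, and the tumour groups 4.00 to 4.84 and 3.37 to 5.16.

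The genes whose values over the 35 arrays were most like the mean of the C1q chains were Vcam1 (r = 0.86), an adhesion molecule, Mertk (r = 0.85), Il18 (r = 0.82), a cytokine, AW112010 (r = 0.82), Ms4a6d (r = 0.81), Lamtor5 (r = 0.81), Atp11a (r = 0.80) and Gzmb (r = 0.80), a granzyme. Within the 13 tumours their r ran from 0.65 for Lamtor5 to 0.95 for Mertk, and within the 22 sorted arrays from 0.64 for Il18 to 0.86 for Vcam1. For Csf1r the nearest genes were Slc13a3, Vdr and Npc2 (r = 0.86 each), for Fcgr1 Kcnj10 (r = 0.86), Ms4a6d (r = 0.84) and Vegfd (r = 0.80), and for Ctss Parp3 (r = 0.83), Rbm7 (r = 0.80) and Mndal (r = 0.79). Cd14 was followed by F13a1 (r = 0.77), Tcf7l2 (r = 0.77) and Ccl6 (r = 0.76), Tlr7 by Serpinb6b (r = 0.77), Abhd6 (r = 0.75) and Pdgfra (r = 0.74), and Cd68 by Secisbp2l (r = 0.72), Anxa4 (r = 0.69) and Gstt2 (r = 0.66). These are descriptions over arrays that share groups and scaling. Ms4a6d was in the list of both the C1q chains and Fcgr1.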

How the data were processed

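Expression was measured in 35 Affymetrix mouse arrays, 22 of sorted B cells and 13 of tumours. Per the labels' protocols, RNA was taken with Tripure, amplified with NuGen Ovation V2 and labelled with biotin. The authors deposited 1 table of log2 intensities, made by RMA per the submitters' processing notes, which adjusts background and scales arrays to a common distribution before it is summarised by probe set. Each of its columns was matched to 1 sample by title. Of 22690 probe sets, 64 controls were left out, and 20380 with 1 gene symbol, 691 with several and 1555 with none remained; the first gave 12393 genes, each represented by the probe set of highest mean. Differences were fitted over all genes with limma 3.58.1 in R 4.3.3 (lmFit and eBayes on group means, all 9 groups in the fits with tumours, the 6 sorted stages in the fits of steps), with Benjamini-Hochberg adjustment over all genes and a threshold of 0.05. Comparisons with sorted cells and of all tumours weight each group equally. The fit was tested on simulated data.

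The 9 genes and the gene lists were chosen with earlier results of these data known. Named genes of a list were up to 3 with the smallest p for tumours against sorted cells, and the genes of like pattern were the 8 (C1q mean) or 3 (other genes) with the highest Pearson r over the 35 arrays. Replicate numbers were checked for pairing through the correlation of deviations from group means. Same-numbered arrays had a mean r of 0 (119 pairs) and other pairs 0.004 (421 pairs), so the numbers were not taken as pairs. Alternatives concerned the probe set, a filter on dim genes (log2 6), scaling, the prior, array weights, covariates (strain, the 3' minus 5' difference, 18S rRNA), the replicate block, arrays of narrow spread, plasma cells, groups compared alone, and each array left out in turn. The 18S covariate and the fit without the plasma cells were added after the data were seen. Promoter windows were read from RefSeq's GRCm38.p6 annotation.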

Additional observations from a re-analysis of the deposited data

Results flagged for a closer look

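In 2 of 45 groups of 4 to 6 arrays, over the 9 genes, 1 array stood apart from the rest by Dixon's test at the 95% level, where chance gives about 1 in 20. C1qb in transitional B replicate 3 was 5.73, below the 6.72 to 6.86 of the other 3 arrays (gap over range 0.878, critical value 0.829). Cd14 in Lig4/P53 KO replicate 6 was 8.17, above the 3.87 to 5.10 of the other 5 arrays (gap over range 0.714, critical value 0.625), and without it the difference of Cd14 from sorted cells was -0.40 in place of 0.25.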

How the results depend on the processing

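Of 5085 refitted differences of the 9 genes, 4839 kept their direction and side of the threshold, 100 lost a call and 77 gained one. Another 65 turned their sign with no call before or after, and 4 turned it with a call before, after or both. The 4 were Ctss in tumours with the 18S covariate (-0.90), Tlr7 in Myc/Bcl6-labelled tumours with probe set 1422010_at (-1.45), and Csf1r with probe set 1423593_a_at in Myc/Bcl6-labelled tumours against sorted cells (-0.12) and against Lig4/P53 KO tumours (-0.15). The 18S covariate, added after the data were seen, left 0 of the 9 genes called in tumours, in each tumour group against sorted cells and from plasmablasts to plasma cells. Other changes in the count of genes called follow, and their cause was not tested. Array weights gave 2 in Myc/Bcl6-labelled tumours against sorted cells, 9 among sorted stages, 1 from pre-B to transitional cells, 3 from germinal centre cells to plasmablasts and 7 from there to plasma cells. Without the 3 arrays of narrow spread these were 9 among sorted stages, 4, 1 and 4 in the same steps, and 3 between Myc/Bcl6-labelled and Bcl6-labelled tumours. That last count was 0 after renewed quantile normalization, with equal medians, with the groups compared alone, with the 3' minus 5' covariate and without the plasma cells. From transitional to germinal centre cells it was 2 after quantile normalization and 0 with the strain covariate, whose term rests on the pro-B arrays. With stages compared alone 2 genes passed from germinal centre cells to plasmablasts and 4 to plasma cells, where the 3' minus 5' covariate left 1.

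With each array left out in turn the count ran from 5 to 6 in tumours, 6 to 7 in Bcl6-labelled, 3 to 5 in Myc/Bcl6-labelled and 2 to 3 in Lig4/P53 KO tumours against sorted cells. It ran from 5 to 7 for Bcl6-labelled against Lig4/P53 KO, 3 to 5 for Myc/Bcl6-labelled against Lig4/P53 KO and 0 to 3 for Myc/Bcl6-labelled against Bcl6-labelled tumours. Among sorted stages it ran from 3 to 8, and in the steps in order of differentiation from 0 to 0, 0 to 1, 2 to 5, 0 to 1 and 1 to 3. With the replicate block the counts were 5, 6, 4 and 2 against sorted cells, 6, 1 and 4 between tumour groups (Bcl6-labelled against Lig4/P53 KO, Myc/Bcl6-labelled against Bcl6-labelled and against Lig4/P53 KO), 4 among stages and 0, 0, 3, 0 and 2 in the steps. Groups of 3 to 6 arrays limit what can be told apart.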
